A study of Mus musculus with 10 samples.

Results

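Cytochrome P450 genes encode haem-containing monooxygenases, and the mouse genes among them are named Cyp with a family number, a subfamily letter and a gene number. The 80 genes described here were those whose symbol had exactly that form on a probe set with a single symbol, with Cyp4f39 left out, of 19938 genes with such a probe set. Each of the 80 was represented by 1 probe set. RNA came from whole epidermis of 3-day-old mice, and each of the 10 mice gave 1 array. The 5 ILK-deficient mice (K14Cre; Ilk f/f) carried a pair of floxed alleles of Ilk, the gene of integrin-linked kinase, a scaffold protein of integrin adhesions. The 5 ILK-expressing mice (K14Cre; Ilk f/+) carried 1 floxed allele and kept the other intact, so that the control keratinocytes could also lose 1 copy. The Cre transgene, driven by the keratin 14 promoter, was present in both groups. That promoter acts in keratinocytes and not, as far as is known, in the melanocytes or immune cells that the epidermal sheet also holds. The study compared gene expression between epidermis with and without ILK in its keratinocytes.

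P450 enzymes insert oxygen into their substrates with electrons passed on by cytochrome P450 reductase and cytochrome b5 in the endoplasmic reticulum, or by ferredoxin in mitochondria. Families 1 to 4 act mainly on drugs, pollutants, fatty acids and eicosanoids, whereas most of the higher-numbered families act on cholesterol, bile acids, steroid hormones, retinoic acid or vitamin D. In the epidermis they are known for oxidising the lipids of the permeability barrier, for local turnover of retinoic acid and vitamin D, and for converting chemicals that reach the skin.

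All values are log2 expression values as deposited, so that a difference of 1 means a doubling, and a log2 fold change is the ILK-deficient mean minus the ILK-expressing mean. Probe sets whose linear value reached 50 on 5 or more of the 10 arrays were tested, which kept 61 of the 80 P450 genes. The other 19 were Cyp1a2, Cyp2a22, Cyp2b13, Cyp2c23, Cyp2c39, Cyp2c55, Cyp2c65, Cyp2d9, Cyp2d11, Cyp2d12, Cyp2d13, Cyp2j13, Cyp2t4, Cyp4a31, Cyp4f14, Cyp4x1, Cyp7a1, Cyp11a1 and Cyp26a1. Of these, 12 were below that level on every array, and the highest value any of the 19 reached on an array was 5.97. The p values are those of limma after Benjamini-Hochberg adjustment over the 32046 tested probe sets of the table, and a gene is said to have risen or fallen where its adjusted p was under 0.05. Members of the P450 subfamilies can be nearly identical in sequence, and the probe sequences were not analysed here, so that signal shared between close relatives cannot be told apart.

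Of the 61 P450 genes tested, 2 rose in ILK-deficient epidermis, Cyp27a1 and Cyp39a1, and 1 fell, Cyp2f2. The products of both genes that rose hydroxylate sterols, as do those of Cyp7b1 and Cyp46a1, which were not called. In bulk epidermis, fewer cells of a type and less RNA per cell cannot be told apart. The share called was 4.92%, against 3.78% of all probe sets tested. By direction, 3.28% of the P450 genes rose, against 2.81% of all probe sets, and 1.64% fell, against 0.970%. These shares lie near the background in both directions, so that the P450 genes as a group are not set apart by them. The background is not quite alike, since 12146 of the 35556 probe sets of the table, before the filter, have no gene symbol. With probe sets averaged per gene, 1223 of 18112 genes tested rose and 473 fell. In that setting 3 of the 61 P450 genes rose and 2 fell. The median log2 fold change of the 61 genes was -0.01, against 0.003109 over all probe sets tested, with 29 genes above 0 and 32 below. The median size of the difference, whatever its sign, was 0.0718 for the P450 genes and 0.0894 for all probe sets. For 49 of the 61 genes the whole 95% interval of the difference lay within 1.5-fold in either direction. Only 27 of the 61 reached a linear value of 100 on 5 arrays, and a narrow interval at low signal does not show that a gene is unchanged.

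**Figure D1:**
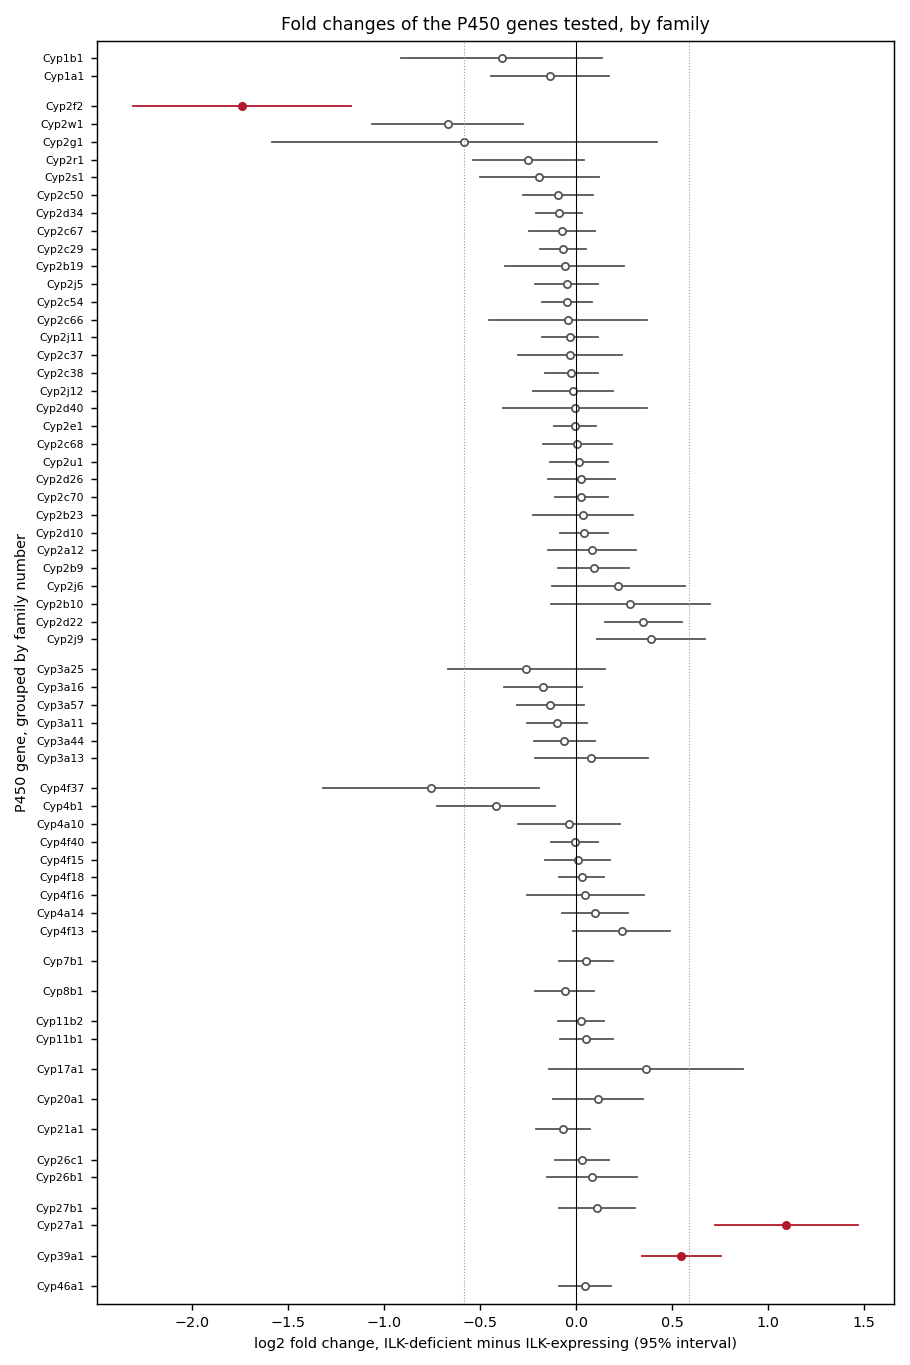
Log2 fold change (ILK-deficient minus ILK-expressing, x axis) of each of the 61 P450 genes tested, grouped by family number, with lines for the 95% interval (n = 5 arrays per genotype) and red for an adjusted p under 0.05. Cyp2f2 lies far to the left at -1.74, Cyp27a1 and Cyp39a1 lie to the right at 1.09 and 0.55, and most other genes lie close to 0.

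The stretches of 250 bases ahead of the transcription start of Cyp27a1 and Cyp2f2 are shown because these genes moved the most in each direction. They are RefSeq sequences of build GRCm38.p6, written 5′ to 3′ on the strand of the gene. Capitals mark the sequence motifs found in them, out of 4 motifs searched on both strands. For Cyp27a1, at chr1:74713285-74713534 on the plus strand, capitals mark GGGCGG, the GC box, which was read on the opposite strand 28 bases ahead of the start. For Cyp2f2, at chr7:27119705-27119954 on the plus strand, capitals mark AGGTCA, the hexamer that nuclear receptors recognise, 221 bases ahead of the start.
Cyp27a1: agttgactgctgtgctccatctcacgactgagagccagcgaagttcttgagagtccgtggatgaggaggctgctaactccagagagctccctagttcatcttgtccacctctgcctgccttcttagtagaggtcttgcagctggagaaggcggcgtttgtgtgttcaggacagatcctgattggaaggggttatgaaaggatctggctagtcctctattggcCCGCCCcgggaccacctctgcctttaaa
Cyp2f2: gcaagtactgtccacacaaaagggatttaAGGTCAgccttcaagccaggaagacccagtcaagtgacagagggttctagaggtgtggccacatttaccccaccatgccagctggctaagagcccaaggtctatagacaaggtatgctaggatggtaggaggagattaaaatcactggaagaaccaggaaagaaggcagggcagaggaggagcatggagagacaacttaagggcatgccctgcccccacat
The Cyp27a1 stretch had a GC content of 54% and the Cyp2f2 stretch one of 51.6%.

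Of the 80 genes, 61 had at least 1 promoter entry, with 69 entries in all. AGGTCA was found in 23.2% of these 69 stretches and in 14% of all 32851 stretches of the same length. TATAAA, the TATA box, was found in 33.3% and 12.4%, respectively. GGGCGG was found in 23.2% and 32.7%, and GCGTG, the core bound by the aryl hydrocarbon receptor with its partner Arnt, in 18.8% and 28.2%. None of the 4 motifs contains another. A match describes these letters only and was not tested as a binding site.

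Cyp2f2, known as the enzyme that activates naphthalene in club cells of the mouse lung, showed the largest difference of the P450 genes tested. Its values were 10.77, 10.26, 11.53, 10.91 and 10.61 on the ILK-expressing arrays and 8.30, 9.35, 9.06, 9.35 and 9.33 on the ILK-deficient arrays. The genotypes did not overlap, and the ILK-deficient array of replicate 1 was the lowest of all. The ILK-deficient mean was 9.08 ± 0.452 (SD, n = 5) and the ILK-expressing mean 10.8 ± 0.465 (SD, n = 5). Their difference gave a log2 fold change of -1.74 (standard error, SE, of 0.256, 95% interval -2.31 to -1.17, limma adjusted p = 0.00664), or an expression 3.34-fold lower. In an exact two-sided permutation test it had p = 0.00794, the smallest that the 126 splits of the arrays can give.

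Cyp27a1 encodes the mitochondrial sterol hydroxylase that acts on cholesterol side chains in bile acid synthesis and can also hydroxylate vitamin D. Its values were 6.46, 6.49, 6.54, 6.46 and 6.50 on the ILK-expressing arrays and 7.36, 7.47, 8.17, 7.10 and 7.82 on the ILK-deficient arrays. All ILK-deficient arrays were above all ILK-expressing arrays, and they were also spread more widely, with an SD of 0.418 against 0.0324 (n = 5 each). ILK-deficient epidermis thus had a log2 fold change of 1.09 (SE 0.169, 95% interval 0.72 to 1.47, limma adjusted p = 0.00779), or an expression 2.13-fold higher. The exact permutation test gave p = 0.00794.

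Cyp39a1 encodes an oxysterol hydroxylase of the endoplasmic reticulum that feeds into bile acid synthesis. Its values were 9.75, 9.56, 9.69, 9.44 and 9.69 on the ILK-expressing arrays and 9.95, 10.26, 10.37, 10.23 and 10.05 on the ILK-deficient arrays. The genotypes again did not overlap, although the nearest arrays were close, and the log2 fold change was 0.55 (SE 0.0926, 95% interval 0.34 to 0.75, limma adjusted p = 0.0118), or 1.46-fold higher. The exact permutation test gave p = 0.00794. None of the 3 genes passed when only the 7 arrays with the prefix D in their descriptions were kept, although the differences were of like size: the log2 fold change was -1.84 for Cyp2f2 (limma adjusted p = 0.0604), 1.03 for Cyp27a1 (adjusted p = 0.0991) and 0.54 for Cyp39a1 (adjusted p = 0.0858). With the replicate number as a block, Cyp39a1 did not pass (limma adjusted p = 0.0596).

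**Figure D2:**
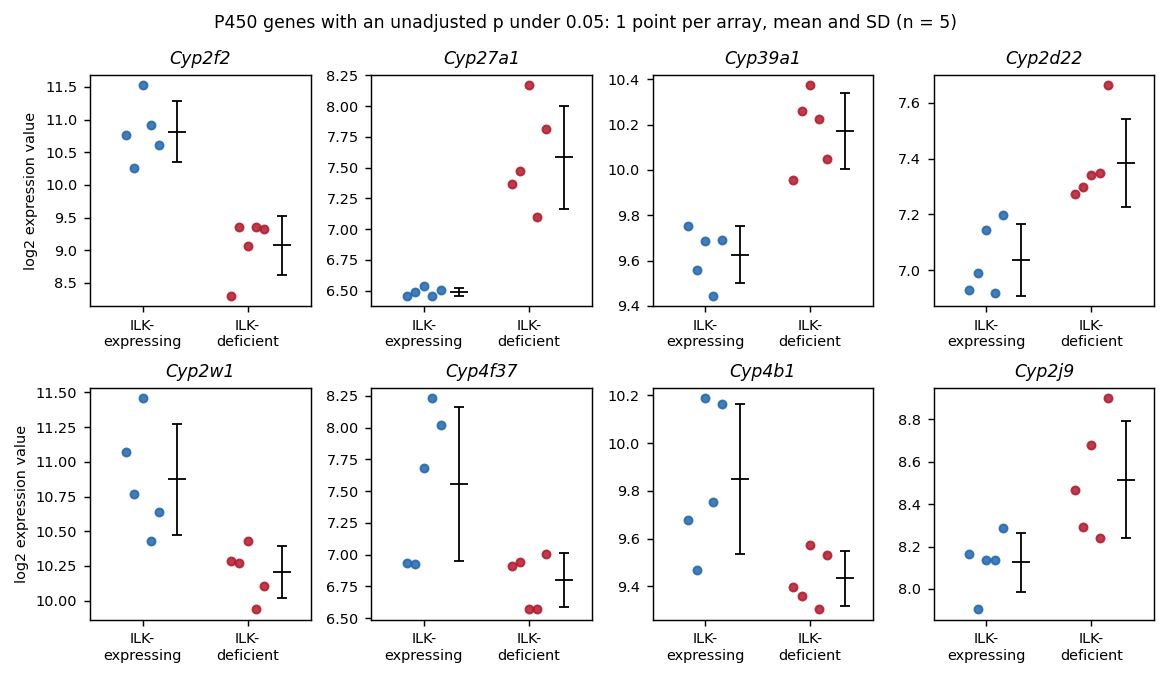
Log2 expression value (y axis) of the 8 P450 genes with an unadjusted p under 0.05, with 1 point per array and the mean and SD of each genotype (n = 5). The points of the genotypes do not overlap for Cyp2f2, Cyp27a1, Cyp39a1 and Cyp2d22, and overlap in at least 1 array for the other 4 genes.

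Outside the 3 genes past the test, Cyp2d22 was the only P450 gene whose genotypes did not overlap. It belongs to the subfamily of drug-metabolising enzymes to which human CYP2D6 belongs. Its values were 6.93, 6.99, 7.15, 6.92 and 7.20 on the ILK-expressing arrays and 7.27, 7.30, 7.34, 7.35 and 7.66 on the ILK-deficient arrays. The log2 fold change was 0.35 (SE 0.0908, 95% interval 0.15 to 0.55), and the adjusted p of 0.0652 from limma missed the threshold. Genotypes without overlap were thus seen for 4 of 61 genes or 6.56%, against 6.33% of all probe sets tested. By direction, 3 of the 61 genes had all ILK-deficient arrays higher, against 4.37% of all probe sets, and 1 had them all lower, against 1.96%. Cyp2d22 passed with array weights (limma adjusted p = 0.0427) and with probe sets averaged per gene, where fewer features were tested (adjusted p = 0.0294).

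Cyp2w1, an enzyme known from the developing gut and from colon tumours, was the gene nearest to the threshold on the lower side. Its values were 11.07, 10.77, 11.46, 10.43 and 10.64 on the ILK-expressing arrays and 10.28, 10.27, 10.43, 9.94 and 10.10 on the ILK-deficient arrays. The genotypes met only at the highest ILK-deficient and the lowest ILK-expressing array, at a log2 fold change of -0.67 (SE 0.178, 95% interval -1.06 to -0.27, limma adjusted p = 0.0708; exact permutation test, p = 0.0159). It passed with the replicate number as a block (limma adjusted p = 0.0336), with array weights (adjusted p = 0.0346), with probe sets averaged per gene (adjusted p = 0.0305) and without ILK-expressing replicate 4 (adjusted p = 0.0481).

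Against 3.06% of all probe sets tested, which include those without a gene symbol, 4 of the 61 P450 genes or 6.56% differed by 1.5-fold or more. They were Cyp2f2, Cyp27a1, Cyp2w1 and Cyp4f37, a member of the subfamily of fatty acid and eicosanoid hydroxylases. Cyp4f37 had values of 6.93, 6.92, 7.68, 8.23 and 8.02 on the ILK-expressing arrays and 6.91, 6.94, 6.57, 6.57 and 7.01 on the ILK-deficient arrays. The ILK-expressing arrays of replicates 3, 4 and 5 were the highest, and those of replicates 1 and 2 lay within the range of the ILK-deficient arrays. Its log2 fold change of -0.76 (SE 0.254, 95% interval -1.32 to -0.20) had an adjusted p of 0.150 from limma.

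A further pair of genes had an unadjusted p under 0.05, which 8 of the 61 P450 genes had and 15.9% of all probe sets tested. Cyp4b1, known for hydroxylating fatty acids and for activating plant toxins, had values of 9.68, 9.47, 10.19, 9.75 and 10.16 on the ILK-expressing arrays and 9.40, 9.36, 9.57, 9.30 and 9.53 on the ILK-deficient arrays. The genotypes overlapped only in ILK-expressing replicate 2, and the log2 fold change was -0.42 (95% interval -0.72 to -0.11, limma adjusted p = 0.143). Cyp2j9, of the subfamily that converts arachidonic acid to epoxides, had values of 8.16, 7.91, 8.14, 8.14 and 8.29 on the ILK-expressing arrays and 8.47, 8.29, 8.68, 8.24 and 8.90 on the ILK-deficient arrays. The overlap was again small, and the log2 fold change was 0.39 (95% interval 0.11 to 0.67, limma adjusted p = 0.138).

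By role, family 1 holds the genes best known as targets of the aryl hydrocarbon receptor, which senses dioxins, polycyclic hydrocarbons and tryptophan photoproducts. Of its 3 members, 2 were tested and neither passed. Cyp1a1 had a log2 fold change of -0.14 (95% interval -0.44 to 0.17, limma adjusted p = 0.760), and its ILK-deficient arrays, between 5.76 and 5.98, lay within the range of the ILK-expressing arrays, between 5.61 and 6.39. This signal was near the level tested, so that a lack of change cannot be read from it. Cyp1b1 had values of 6.90, 6.74, 6.95, 7.79 and 7.53 on the ILK-expressing arrays and 6.87, 6.86, 6.39, 6.48 and 7.36 on the ILK-deficient arrays. Here too ILK-expressing replicates 4 and 5 were the highest, and the log2 fold change was -0.39 (95% interval -0.91 to 0.13, limma adjusted p = 0.516), or -0.23 without ILK-expressing replicate 4.

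Family 2, by far the largest, had 43 members of which 31 were tested. Besides Cyp2f2 none of them passed, with 12 log2 fold changes above 0, 19 below and a median of -0.02. Cyp2b19, the arachidonic acid epoxygenase of differentiating keratinocytes, had values of 12.71, 12.62, 12.53, 12.38 and 12.66 on the ILK-expressing arrays and 12.93, 12.59, 12.35, 12.09 and 12.64 on the ILK-deficient arrays. The ILK-deficient arrays spread on both sides of the ILK-expressing arrays, and the log2 fold change was -0.06 (95% interval -0.37 to 0.25, limma adjusted p = 0.928). A difference of 1.5-fold in either direction lies outside this interval. Cyp2b10, a drug-inducible relative best known in liver, had a log2 fold change of 0.28 (95% interval -0.13 to 0.69, adjusted p = 0.568). It was 0.16 without ILK-deficient replicate 5, 0.19 without ILK-expressing replicate 2 and 0.42 without ILK-deficient replicate 4, and passed in none of these.

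Cyp2g1, known from the olfactory mucosa, varied more between arrays of the same genotype than any other P450 gene tested, with a pooled within-genotype SD of 0.821. Its values were 10.07, 9.81, 10.22, 10.89 and 11.77 on the ILK-expressing arrays and 8.68, 10.57, 9.57, 10.28 and 10.76 on the ILK-deficient arrays. The genotypes overlapped widely, and the log2 fold change of -0.58 (95% interval -1.58 to 0.42, limma adjusted p = 0.657) could not be told from 0 at this spread. It was -0.26 without ILK-deficient replicate 1 and -0.28 without ILK-expressing replicate 5. The drug-metabolising subfamily 2c, with 13 members of which 9 were tested, stayed within a narrow range, with log2 fold changes between -0.09 and 0.03. Except for Cyp2c66, the signal of the tested members was low. Chosen after its values were seen, Cyp2r1, a vitamin D hydroxylase, had a log2 fold change of -0.25 (limma adjusted p = 0.414). Cyp2s1, chosen likewise and known to act on retinoids and eicosanoids, had one of -0.19 (adjusted p = 0.619).

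In family 3, which holds the main drug-metabolising enzymes of liver and gut, all 6 members were tested and none passed. Log2 fold changes were below 0 for 5 of the 6, with a median of -0.12. They were 0.08 for Cyp3a13, -0.26 for Cyp3a25, -0.10 for Cyp3a11 and -0.06 for Cyp3a44, with a lowest adjusted p in the family of 0.420 from limma. In family 4, whose enzymes hydroxylate fatty acids and eicosanoids at the chain end, 9 of 12 members were tested, none passed, and the median was 0.01. Besides Cyp4b1 and Cyp4f37, Cyp4f13 had a log2 fold change of 0.24 (95% interval -0.01 to 0.49, limma adjusted p = 0.353) and Cyp4f16 one of 0.05 (adjusted p = 0.945). Without ILK-expressing replicate 4 the value for Cyp3a25 was -0.15 and without ILK-expressing replicate 3 it was -0.40, and without ILK-expressing replicate 2 that for Cyp4f13 was 0.15.

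The sterol, bile acid and steroid enzymes fall into families 7, 8, 11, 17, 21, 27, 39 and 46. In families 7, 8 and 46, Cyp7b1, another oxysterol hydroxylase, had a log2 fold change of 0.05 (95% interval -0.09 to 0.19), Cyp8b1 of cholic acid synthesis one of -0.06 (95% interval -0.21 to 0.09), and Cyp46a1, the cholesterol hydroxylase of neurons, one of 0.05 (95% interval -0.09 to 0.18). None of these passed, and each interval lay within 1.5-fold. The signal of Cyp7b1 and Cyp8b1 was near the level tested, with ILK-deficient means of 5.86 and 5.81, so that a lack of change cannot be read from it. Cyp11b1 and Cyp21a1, of corticosteroid synthesis, had log2 fold changes of 0.05 and -0.07. Their signal was also near the level tested, with ILK-deficient means of 5.83 and 5.70, and the same limit holds for them. Cyp20a1, of unknown substrate, had one of 0.11 (limma adjusted p = 0.730).

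Cyp17a1, the steroid hydroxylase and lyase on the way to androgens, had values of 10.00, 9.96, 10.44, 10.77 and 11.03 on the ILK-expressing arrays and 10.76, 10.79, 11.14, 10.28 and 11.05 on the ILK-deficient arrays. Among the ILK-expressing arrays, replicates 4 and 5 were again the highest, within the range of the ILK-deficient arrays. The log2 fold change was 0.36 (95% interval -0.14 to 0.87, limma adjusted p = 0.536). Among the 7 arrays with the prefix D it was 0.61 (adjusted p = 0.283), over 1.5 times as large.

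Retinoic acid is broken down by the Cyp26 enzymes, and vitamin D is activated by Cyp27b1. Cyp26b1 had a log2 fold change of 0.08 (95% interval -0.15 to 0.31, limma adjusted p = 0.843) and Cyp26c1 one of 0.03 (95% interval -0.11 to 0.17, adjusted p = 0.911). The signal of Cyp26c1 was near the level tested, with an ILK-deficient mean of 5.81, so that a lack of change cannot be read from it. Cyp26a1 was below a linear value of 50 on every array, with log2 values between 5.12 and 5.26. Cyp27b1, which reached that level on 5 arrays, had a log2 fold change of 0.11 (95% interval -0.09 to 0.31, adjusted p = 0.679). Of the vitamin D and retinoic acid enzymes in families 26 and 27, Cyp27a1 was thus the only one past the test.

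**Figure D3:**
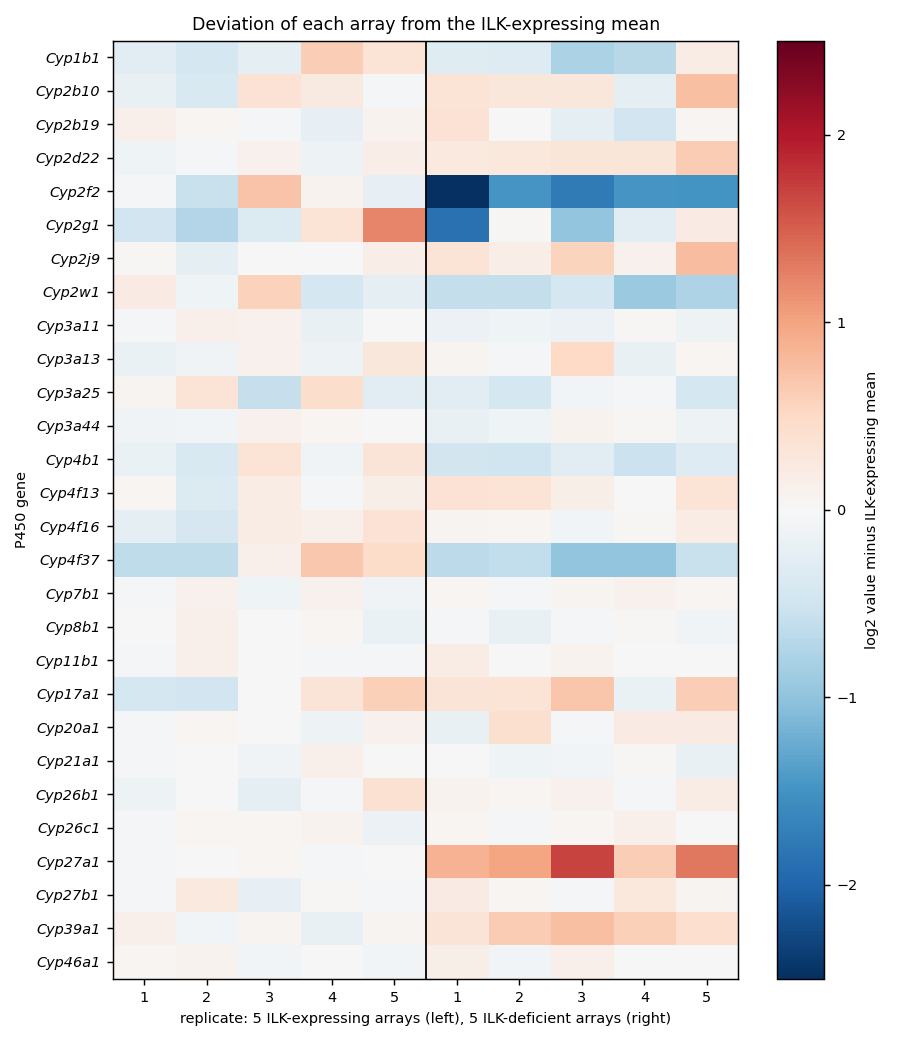
Deviation of the log2 value of each array (columns, 5 ILK-expressing then 5 ILK-deficient) from the ILK-expressing mean of the gene (rows, 28 named P450 genes), as a colour scale in log2 units. The ILK-deficient columns are uniformly low for Cyp2f2 and uniformly high for Cyp27a1, whereas Cyp2g1 varies within both genotypes.

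The P450 genes lie largely in chromosomal clusters. In the order of RefSeq genes, with at most 10 other coding genes between neighbours, 79 of the 80 genes were found and 60 of them lay in 10 clusters. The cluster that runs from Cyp2s1 to Cyp2t4 holds 11 members, of which 8 were tested, with Cyp2f2 near its far end. Cyp2f2 was the only member of a cluster past the test. Its tested neighbour Cyp2a12, chosen after its values were seen, had a log2 fold change of 0.08 (95% interval -0.15 to 0.31, limma adjusted p = 0.829), and the median of the 8 was -0.01. In the Cyp2c, Cyp3a and Cyp2j clusters, 9, 5 and 5 genes were tested and none passed. Cyp27a1 and Cyp39a1 each lay outside any cluster.

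**Figure D4:**
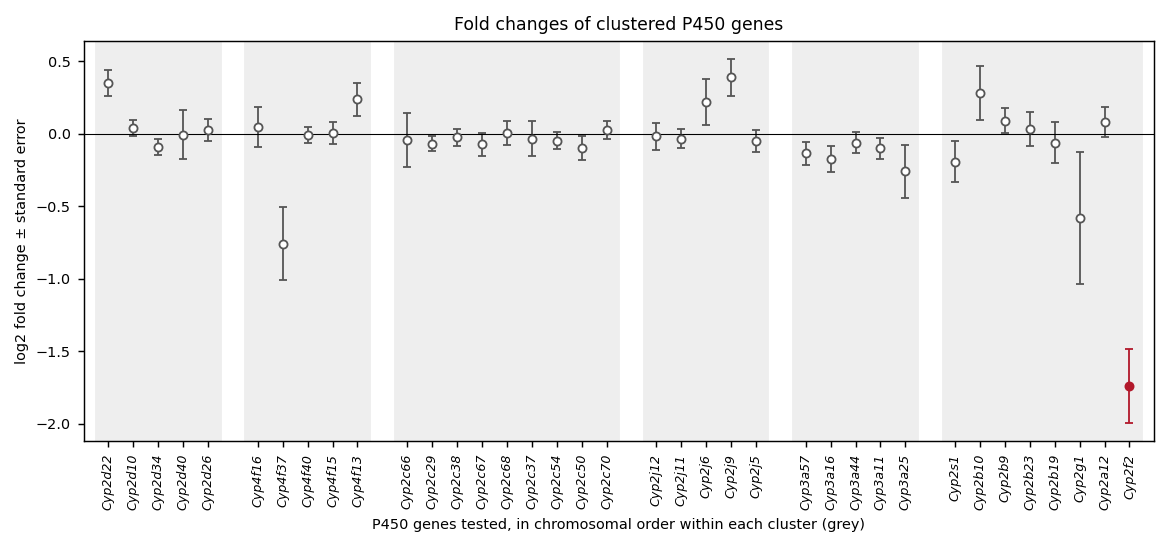
Log2 fold change with its standard error (y axis) of the tested P450 genes in the 6 clusters with at least 5 of them, in chromosomal order (x axis, grey bands for clusters), with red for an adjusted p under 0.05. Cyp2f2 at -1.74 stands far below the other tested genes of its cluster, whose log2 fold changes lie between -0.58 for Cyp2g1 and 0.28 for Cyp2b10.

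Genes that work with P450 enzymes, and P450 genes named otherwise, were followed in 7 lists. Over all probe sets tested, 2.81% rose and 0.970% fell. An analysis of variance was run beside limma, without its moderation, with the same adjustment and no fold threshold. The paper instead called probe sets at p under 0.05 with a change of 1.5-fold or more. Of the 11 genes on the electron donor list, 7 were found and tested. Cytochrome P450 reductase was not among these 7, so that its expression was not followed here. No gene passed among the 7, where 0 had an unadjusted p under 0.05 on the higher and 1 on the lower side, and the analysis of variance called 0. Of the 3 with the highest values, Cyb5a, the microsomal cytochrome b5, had a log2 fold change of -0.07 (limma adjusted p = 0.713). Cyb5r3, its reductase, had one of -0.10 (adjusted p = 0.853), and Pgrmc1, a haem-binding partner of P450 enzymes, one of -0.003 (adjusted p = 0.995). The gene with an unadjusted p under 0.05 was Cyb5b, named after its values were seen. Its genotypes did not overlap, and the log2 fold change was -0.43 (95% interval -0.70 to -0.16, limma adjusted p = 0.0888). The median over the 7 was -0.01, against 0.003109 over all probe sets tested.

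Among the 9 genes of haem synthesis and breakdown, 1 fell and none rose, with a median of -0.21. Alad, the enzyme that joins aminolevulinic acid into porphobilinogen, had values of 11.96, 11.77, 12.50, 12.54 and 12.26 on the ILK-expressing arrays and 10.88, 11.30, 11.09, 11.54 and 11.41 on the ILK-deficient arrays. All ILK-deficient arrays were below all ILK-expressing arrays, with a log2 fold change of -0.96 (SE 0.171, limma adjusted p = 0.0148). Alad passed the analysis of variance narrowly (adjusted p = 0.0477). Alas1, which catalyses the rate-limiting step, was named after its values were seen and had a log2 fold change of -0.21 (adjusted p = 0.520).

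Of 23 receptors and cofactors known to regulate P450 genes, 18 were tested, 1 rose, 1 fell and the median was 0.04. Rarb, a retinoic acid receptor that is itself a retinoic acid target, rose, with values of 6.14, 6.18, 6.03, 6.17 and 6.08 on the ILK-expressing arrays and 6.50, 6.90, 6.37, 6.85 and 6.62 on the ILK-deficient arrays. The genotypes did not overlap, and the log2 fold change was 0.53 (SE 0.102, limma adjusted p = 0.0201). Rarb passed the analysis of variance only narrowly (adjusted p = 0.0499), and its signal was low on the ILK-expressing arrays. Pparg, the receptor that drives fat and sebaceous cell differentiation, fell, with values of 7.59, 7.76, 7.52, 8.05 and 8.23 on the ILK-expressing arrays and 6.91, 7.16, 6.87, 7.39 and 7.04 on the ILK-deficient arrays. The log2 fold change was -0.76 (SE 0.151, adjusted p = 0.0233), and Pparg did not pass the analysis of variance (adjusted p = 0.0630). The paper, whose criterion named no adjustment, reports a significant decrease of this mRNA.

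Ahr, the aryl hydrocarbon receptor, was named after its values were seen and had a log2 fold change of 0.04 (limma adjusted p = 0.939). Of 15 epoxide hydrolases and conjugating enzymes, which take over the products of P450 reactions, 1 fell and none rose, with a median of -0.25. On the lower side 9 of the 15 had an unadjusted p under 0.05, against 15.9% of all probe sets tested in either direction. Ephx3, an epidermal epoxide hydrolase, fell, with a log2 fold change of -0.46 (SE 0.0803, adjusted p = 0.0130). Its values lay between 11.32 and 11.70 on the ILK-deficient arrays and between 11.85 and 12.09 on the ILK-expressing arrays, without overlap.

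In the list of retinoic acid supply and binding, none of 9 genes tested passed, with a median of -0.23 and 0 called by the analysis of variance. On the lower side 3 had an unadjusted p under 0.05 and on the higher side 0, against 15.9% of all probe sets tested in either direction. Of 10 steroid hormone enzymes other than P450 genes, with a median of -0.18, 1 fell. This was Hsd17b2, which inactivates estradiol and testosterone, with a log2 fold change of -0.43 (SE 0.0979, limma adjusted p = 0.0375), and it did not pass the analysis of variance (adjusted p = 0.0733). Of the 3 P450 genes whose symbols do not follow the naming pattern, none passed, and 0 had an unadjusted p under 0.05. Cyp51, the lanosterol demethylase of cholesterol synthesis, was likewise chosen with its values seen and had a log2 fold change of -0.34 (adjusted p = 0.406).

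**Figure D5:**
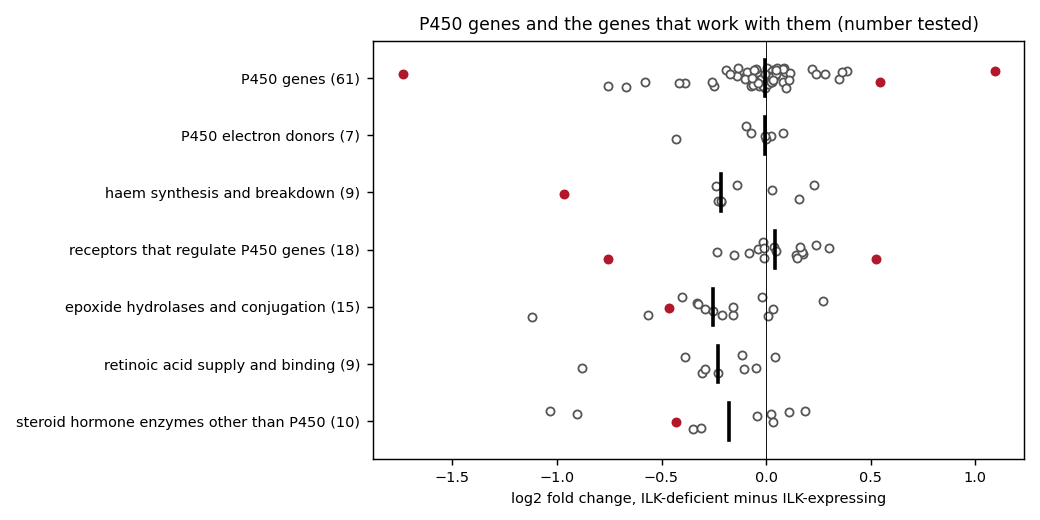
Log2 fold changes (ILK-deficient minus ILK-expressing, x axis) of the P450 genes and of 6 lists of genes that work with them, with 1 point per gene tested, red for an adjusted p under 0.05 and a bar at the median. The medians of the 6 lists lie between -0.25 and 0.04, and 5 of their genes passed the test, of which 4 fell.

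Among the lists of cell type markers, only the hair follicle and melanocyte lists had summed levels without overlap between the genotypes. Over all probe sets tested, 2.81% rose and 0.970% fell. All 10 keratinocyte markers on the array were at the level tested, with a summed level between 16.63 and 16.76 (log2 of summed linear values) in ILK-expressing and between 16.59 and 16.65 in ILK-deficient epidermis. Of these, Trp63, a transcription factor of basal keratinocytes, rose (log2 fold change 0.35, limma adjusted p = 0.0204) and Krt14, the basal keratin whose promoter drives Cre, fell (log2 fold change -0.23, adjusted p = 0.0452), both without overlap of the genotypes. The hair follicle list fell in 7 of 11 genes, with a summed level between 13.80 and 15.66 in ILK-expressing and between 12.45 and 12.91 in ILK-deficient epidermis. The melanocyte list rose in 6 of 8 genes, between 11.02 and 12.29 against between 12.83 and 13.74. In the macrophage and Langerhans cell list 2 of 11 genes rose, but the median log2 fold change was 0.07. Its sums overlapped, between 11.50 and 12.15 against between 11.53 and 11.89. By the analysis of variance, 2 keratinocyte, 6 hair follicle, 1 melanocyte and 1 macrophage and Langerhans cell markers were called, Sox10 being the melanocyte marker and Adgre1 the macrophage marker. No marker of these 4 lists was below the level tested, and their part in the differences of Cyp2f2, Cyp27a1 and Cyp39a1 was not tested.

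None of 10 sebocyte markers passed. On the lower side 3 had an unadjusted p under 0.05 and on the higher side 0, against 15.9% of all probe sets tested in either direction. The median log2 fold change of the list was nevertheless -0.78. Elovl3 (-2.31, limma adjusted p = 0.0508) and Mc5r (-2.13, adjusted p = 0.0537) narrowly missed the threshold, without overlap of the genotypes. The summed level of the list was 12.43, 12.30, 12.33, 13.58 and 13.79 on the ILK-expressing arrays and 11.54, 12.04, 11.51, 11.97 and 12.65 on the ILK-deficient arrays. ILK-expressing replicates 4 and 5 were the highest here, as they were among the ILK-expressing arrays for Cyp1b1, Cyp2g1, Cyp4f37 and Cyp17a1. The same held for the adipocyte sums and for the hair follicle sums. The latter were 15.66 and 15.11 on these 2 arrays and between 13.80 and 14.65 on the other ILK-expressing arrays. Replicates 4 and 5 were also the 2 ILK-expressing arrays without the prefix D in their descriptions, whose meaning the labels do not give. Among the 7 arrays with that prefix the log2 fold change was smaller, at -0.21 for Cyp1b1, -0.26 for Cyp2g1 and -0.43 for Cyp4f37. Cyp2f2, Cyp27a1 and Cyp39a1 were not ordered in this way, and all 3 passed with the prefix as a block, with adjusted p values of 0.0181, 0.0232 and 0.0207 from limma. Fibroblast markers had 1 of 11 called higher, Thy1, which is also on the T cell list as its only call and did not pass the analysis of variance, and none of 11 adipocyte, 9 endothelial and 7 skeletal muscle markers tested passed.

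Across the series, array medians lay between 7.07 and 7.17, and the share of probe sets at a linear value of 50 or above was 87.4% to 91.2% per array. Correlations between arrays ranged from 0.967 to 0.991. The Ilk probe set was not split by exon here, and the paper reports a lower signal for only part of the exons. This probe set thus checks the genotypes little, with a log2 fold change of -0.23 (SE 0.0949, limma adjusted p = 0.253). The number of arrays limits the precision. The p values set the difference between genotypes against the spread between arrays of the same genotype, with 1 array per mouse.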

How the data were processed

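RNA of dispase-separated epidermis was hybridised to GeneChip Mouse Gene 1.0 ST Arrays, 1 per mouse. The deposited log2 values had been background-adjusted, quantile-normalized and summarised per probe set by the authors. The methods name GC-RMA, RMA and Partek, and which of them made the table is not stated. Groups came from the labels.

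Probe sets were named from the platform annotation. Those that reached a linear 50 on 5 or more of the 10 arrays, 32046 in all, were compared with limma 3.58.1 in R 4.3.3 (lmFit and eBayes), without covariates, with Benjamini-Hochberg adjustment. The test was checked on simulated data. Replicate numbers were not taken as pairs, since their deviations correlated between -0.30 and 0.11. The 20 alternatives changed the filter, scaling, test, block, weights, probe sets or arrays.

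Named genes were those past the test or without overlap, the 5 largest rises and falls, the highest of each family (4 for families 2, 3 and 4), families 26 and 27, and partner genes past the test with 3 genes of the electron donor list. The members and lists were chosen with earlier results of these data known. Promoters came from RefSeq.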

Additional observations from a re-analysis of the deposited data

Results flagged for a closer look

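In 3 of 56 groups of 5 arrays examined among the P450 genes named, 1 array stood apart from the other 4 of its genotype by more than Dixon's 95% limit of 0.71 for the gap over the range, which chance gives in about 1 in 20 groups. For Cyp2f2, ILK-deficient replicate 1 was the lowest at 8.30, with the others between 9.06 and 9.35. For Cyp2d22, ILK-deficient replicate 5 was the highest at 7.66, with the others between 7.27 and 7.35. For Cyp3a11, ILK-deficient replicate 4 was the highest at 6.44, with the others between 6.26 and 6.29.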

How the results depend on the processing

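Of 20 alternatives, none turned the direction of a named gene with a call. The number of P450 genes that rose was 2 in the comparison reported, 3 with array weights and with probe sets averaged per gene, where Cyp2d22 also passed, 1 with the replicate block and 0 among the 7 arrays with prefix D, where an unadjusted p under 0.05 was found for 5 higher and 2 lower genes. The number that fell was 1 in the comparison reported, 2 with the replicate block, with array weights and with probe sets averaged per gene, and 0 among the arrays with prefix D. Leaving out 1 array in turn gave 2 genes that rose each time and between 1 and 2 that fell, with 2 without ILK-expressing replicate 4, where Cyp2w1 passed. The same-numbered arrays correlated between -0.30 and 0.11 in their deviations, 0 of 10 correlating best with its own number, and the block moved the calls over all probe sets from 900 higher and 311 lower to 477 and 131. The analysis of variance, with adjusted p values and no fold threshold, gave 528 and 158. Arrays centred on their median gave 593 and 255, and the arrays with prefix D alone 193 and 101. With 1 array left out they were lowest without ILK-deficient replicate 5, at 439 and 158. Averaging probe sets per gene made 18112 tests and gave 1223 and 473. The median log2 fold change of the P450 genes stayed between -0.03 and 0.04. The number of arrays and the low signal of many P450 genes limit what could be detected, and the cause of these changes was not tested.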
